A study of Homo sapiens with 54 samples.

Results

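Expression of 10 genes that govern entry into and exit from mitosis was followed in NCI-H460 cells, an established human lung large cell carcinoma line. The genes were the cyclins CCNA2, CCNB1, CCNB2 and CCNF, the kinase CDK1, its inhibitory kinases WEE1 and PKMYT1, the phosphatases CDC25B and CDC25C, and CDC20. Each gene was represented by the array row with the highest mean among the rows annotated with exactly that 1 symbol, which gave 10 of the 18417 genes measured this way. RNA was hybridised to 54 one-colour arrays in 18 groups of 3, which the labels call biological replicates. Every culture, controls included, spent 24 h in medium without serum before treatment. Some cultures then received nicotine at 5 uM and others cigarette smoke extract at 5 uM nicotine equivalent. After 2 h they were given 1 dose of 6 Gy from a cesium-137 source, cisplatin at 1 uM or no therapy, and were collected 2 h or 24 h later. The 9 combinations at each time comprised untreated cells, nicotine, smoke extract, radiation, radiation after nicotine, radiation after smoke extract, cisplatin, cisplatin after nicotine and cisplatin after smoke extract. All treatments ran concurrently on 9 multi-well plates, but which plate held which culture is not given in the sources used here. All groups come from 1 line, and no sorting by cell cycle phase is described.

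CDK1 drives cells from G2 into mitosis when it is bound to a B-type or A-type cyclin. WEE1 and PKMYT1 hold the complex inactive by phosphorylating CDK1, and the CDC25 phosphatases remove those phosphates. CDC20 then activates the anaphase-promoting complex, which destroys the mitotic cyclins. After DNA damage, checkpoint kinases restrain CDC25, and p53 with its target CDKN1A can lower transcription of many mitotic genes, whose promoters often carry CCAAT boxes and a cell cycle homology region (CHR).

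The promoters of CCNB1, CCNB2, CDC20 and CCNF are shown because each has a single listed start, holds a CCAAT box and holds letters of the CHR type, and because CCNF was called lower already at 2 h after radiation while the other 3 were called at 24 h. They are RefSeq sequences on GRCh38.p14, covering the 125 bases before the listed start, 5′ to 3′ on the plus strand, in the order chr5:69167025-69167149, chr15:59105021-59105145, chr1:43358856-43358980 and chr16:2429322-2429446. Capitals mark 3 kinds of match, searched on both strands. They are the CCAAT box (spelled CCAAT, with ATTGG for the opposite strand), the CHR core (spelled TTTGAA, with TTCAAA for the opposite strand) and the palindromic variant of that core, TTTAAA.
CCNB1: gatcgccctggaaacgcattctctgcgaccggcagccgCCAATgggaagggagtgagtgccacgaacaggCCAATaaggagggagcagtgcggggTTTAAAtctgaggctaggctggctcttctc
CCNB2: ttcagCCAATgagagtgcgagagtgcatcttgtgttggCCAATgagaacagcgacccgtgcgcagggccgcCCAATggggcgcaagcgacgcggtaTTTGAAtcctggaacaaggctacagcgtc
CDC20: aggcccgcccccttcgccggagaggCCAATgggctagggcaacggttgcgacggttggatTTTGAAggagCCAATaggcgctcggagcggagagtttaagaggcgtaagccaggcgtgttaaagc
CCNF: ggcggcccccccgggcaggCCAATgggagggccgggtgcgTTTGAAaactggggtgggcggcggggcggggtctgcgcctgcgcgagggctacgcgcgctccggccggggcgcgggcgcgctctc
CCNB2 held 3 CCAAT matches, CCNB1 and CDC20 held 2 each and CCNF held 1. The match to the CHR core or its variant began 30 bases before the start in CCNB1, 29 in CCNB2, 65 in CDC20 and 85 in CCNF. Of 35116 promoter windows of the same length, 21% held CCAAT, 4.79% held CCAAT at least 2 times, 5.96% held TTTGAA, 5.08% held TTTAAA, and 2.34% held CCAAT with either of the latter. These are matches of letters, not measured binding sites. The 4 promoters were picked for holding such matches, so the shares are no test of them. RefSeq windows were matched for 8 of the 10 genes. CCNA2 also has 1 listed start, whose window held 1 CCAAT match and no match of the CHR type. CDK1 has 2 listed starts, of which 1 held neither and the other held 2 CCAAT and 2 TTTGAA matches. CDC25C has 4, of which 1 held CCAAT with TTTGAA, 1 held CCAAT only and 2 held neither. Among the 4 starts of CDC25B, 1 held CCAAT and none held letters of the CHR type. WEE1 and PKMYT1 were not matched.

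Arrays of a group correlated at 0.979 to 0.996, and array medians lay between 6.43 and 6.63. CDKN1A, the p53 target used as a check of irradiation, was 2.39-fold higher 2 h after radiation (limma adjusted p = 5.28e-07). CYP1A1, a target of the aryl hydrocarbon receptor, was 10.3-fold higher 2 h after smoke extract (limma adjusted p = 8.5e-24). Keratins KRT8, KRT18 and KRT19 stood at the 99.6, 98.8 and 99.3 percentile of all genes, whereas the epithelial markers EPCAM and CDH1 stood at 17.5 and 14.6. Of the leukocyte markers, PTPRC, CD3E, CSF1R and CD14 stood at 1.86, 16.3, 30 and 38.3. Of the fibroblast markers, DCN, COL1A2, LUM, PDGFRB and COL1A1 stood at 1.21, 33.7, 33.9, 48.8 and 60.5. In 13 arrays the mean of 453 olfactory receptor, taste receptor and keratin-associated protein genes, called the silent families here, lay far from the array's own group, and these arrays included 2 of the 3 given radiation after smoke extract at 24 h. All levels below are log2 values as deposited. No detection calls were used, so a low value cannot be told from background, and levels are compared within a gene only. Because RNA came from whole cultures, a smaller share of cells in G2 or mitosis and less transcript per cell cannot be told apart.

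Radiation lowered most of the 10 genes at 24 h, smoke extract before radiation lowered them further, and cisplatin alone left none of them past the threshold. At 24 h after radiation alone, 8 of 10 genes were lower and 0 higher, beside 11% of all genes called lower. Their median log2 change was -0.56 over all 10, beside 0.03 over all genes. In cells pretreated with nicotine, radiation again lowered 8 of 10 genes, beside 6.66% of all genes called lower, although CCNB2, CDC25C and PKMYT1 did not pass there when the fit held only the compared groups (adjusted p = 0.0782, 0.0877 and 0.0961). In cells pretreated with smoke extract it lowered 10 of 10, beside 9.96%, with a median of -1.10 beside 0.01. At 2 h after radiation alone only CCNF and WEE1 were lower, 2 of 10 beside 0.168% of all genes. Calls are limma tests at a Benjamini-Hochberg adjusted p under 0.05 over 18417 genes.

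**Figure D1:**
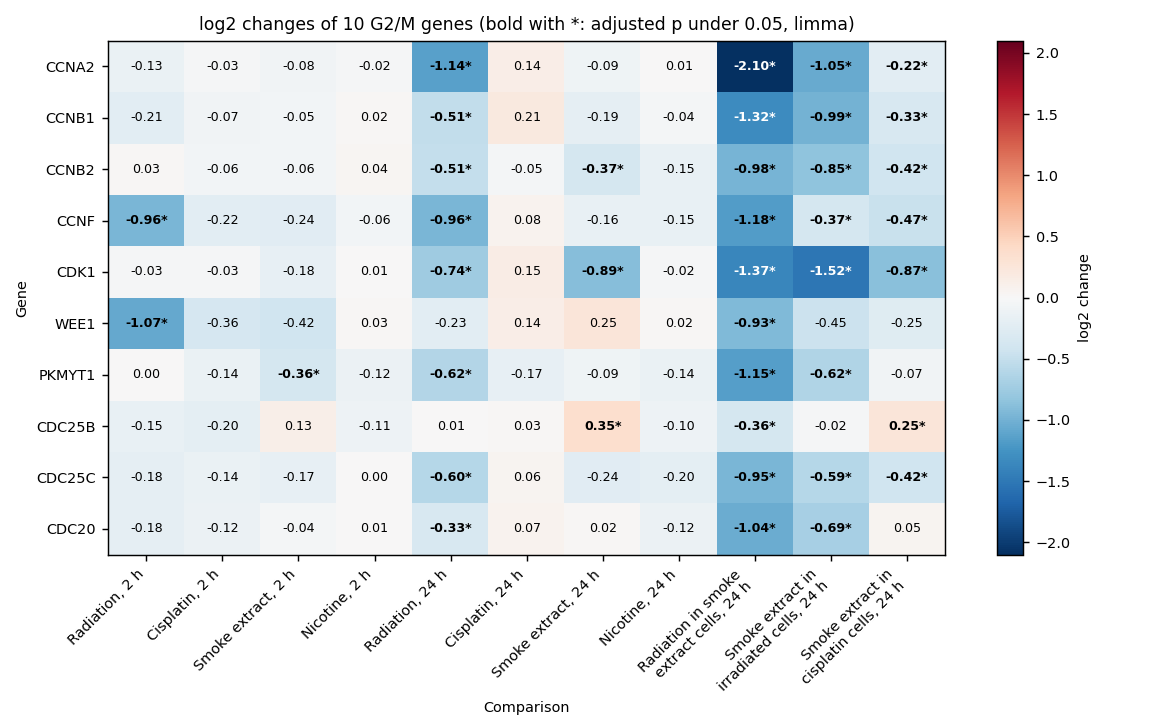
Log2 change of each of the 10 genes (rows) in 11 comparisons (columns), with bold starred values called at an adjusted p under 0.05 by limma. The column for radiation in smoke extract pretreated cells at 24 h has calls for all 10 genes, down to -2.10 for CCNA2, while the columns of cisplatin alone and nicotine alone hold no call.

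**Figure D2:**
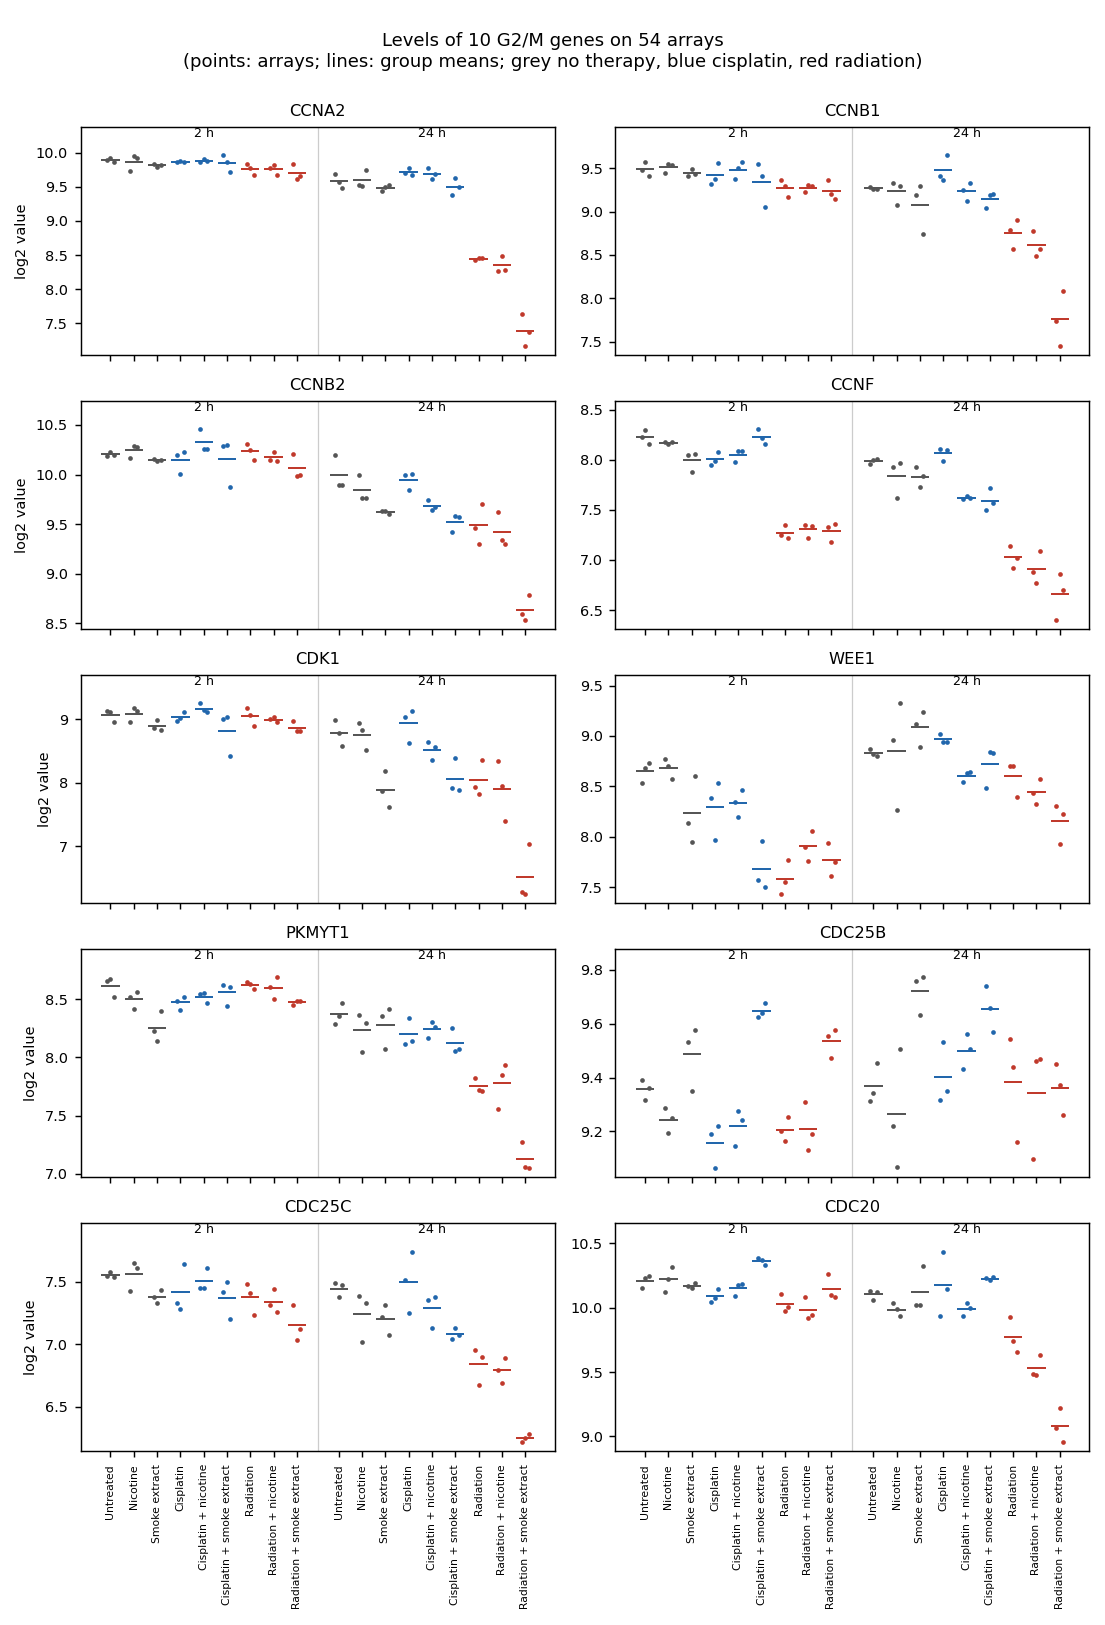
Log2 level of each of the 10 genes in all 18 groups, 1 panel per gene, with points for single arrays and a bar for the mean of 3. Radiation after smoke extract at 24 h is the lowest group in 8 panels; in the WEE1 panel radiation at 2 h is lowest, and in the CDC25B panel cisplatin at 2 h.

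CCNA2 and CCNB2 were lowered by radiation more at 24 h than at 2 h, while for CCNB1 that difference was not called. CCNA2, the cyclin of S phase and G2, read 9.69, 9.57 and 9.49 in untreated cells at 24 h and 8.42, 8.46 and 8.46 after radiation. The groups did not overlap, and the change of -1.14 ± 0.08 (SE, 3 arrays a group) was a 2.20-fold fall with a limma adjusted p of 1.15e-14. After smoke extract alone its values were 9.43, 9.50 and 9.53, overlapping the untreated arrays (change -0.09, limma adjusted p = 0.557). After smoke extract and radiation they were 7.64, 7.17 and 7.37. All 3 lay below every irradiated array, and against smoke extract alone the fall was 2.10 ± 0.08 on the log2 scale, 4.28-fold (limma adjusted p = 2.16e-24). At 2 h after treatment the highest and lowest of the 9 group means of CCNA2 differed by only 0.19, against 2.33 at 24 h. The radiation effect itself differed between the times for 4 of the 10 genes, beside 13% of all genes called in either direction, and for CCNA2 by -1.0 ± 0.12 (limma adjusted p = 3.16e-08).

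CCNB1 and CCNB2 encode the B-type partners of CDK1. At 2 h CCNB1 read 9.49, 9.58 and 9.42 in untreated cells and 9.37, 9.30 and 9.17 after radiation. These arrays did not overlap, but CCNB1 was not called at that time. CCNB1 read 9.28, 9.27 and 9.26 in untreated cells at 24 h, 8.79, 8.57 and 8.90 after radiation, and 7.74, 7.45 and 8.09 after smoke extract and radiation. The 3 groups formed separate steps. The first step was a change of -0.51 ± 0.12 (limma adjusted p = 0.000949). The second step, smoke extract in irradiated cells, was -0.99 ± 0.12, a 1.99-fold fall (limma adjusted p = 9.46e-09). With smoke extract alone CCNB1 read 9.20, 9.29 and 8.74, so that 1 array lay low while the other two overlapped untreated cells. CCNB2 read 10.20, 9.89 and 9.89 in untreated cells at 24 h, 9.46, 9.30 and 9.70 after radiation, and 8.60, 8.54 and 8.78 after both. Radiation lowered it by 0.51 ± 0.10 and smoke extract in irradiated cells by 0.85 ± 0.10 (limma adjusted p = 8.70e-05 and 3.24e-09). Unlike CCNA2 and CCNB1, CCNB2 was also called lower after smoke extract alone, at 9.63, 9.63 and 9.60 (change -0.37 ± 0.10, limma adjusted p = 0.00549). That call was lost without untreated replicate 1 at 24 h, the highest of its group (adjusted p = 0.0903).

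CCNF encodes cyclin F, which binds no CDK and serves as the substrate adaptor of an SCF ubiquitin ligase. With WEE1, it was 1 of the 2 genes of the set called lower as early as 2 h after radiation. Untreated cells at 2 h read 8.23, 8.30 and 8.16, and irradiated cells 7.25, 7.35 and 7.22. The groups were far apart, with a fall of 0.96 ± 0.09, 1.94-fold (limma adjusted p = 4.36e-10). Irradiated cells pretreated with nicotine read 7.35, 7.22 and 7.34, and those pretreated with smoke extract 7.33, 7.18 and 7.36. CCNF was lower in both of these comparisons at 2 h, beside 0.0977% and 0.0217% of all genes called lower (limma adjusted p = 6.82e-09 and 2.09e-06). Over the 3 pretreatments the mean fall at 2 h was 0.84 ± 0.05 (limma adjusted p = 8.57e-17), with 2 of 10 genes lower beside 0.793% of all genes. At 24 h radiation lowered CCNF by 0.96 ± 0.09 again, and the difference between the times was -0.00 with a 95% interval of -0.26 to 0.25. Adding smoke extract to radiation at 24 h moved it from 7.14, 6.92 and 7.02 to 6.40, 6.86 and 6.70. This fall of 0.37 ± 0.09 (limma adjusted p = 0.00334) was lost without replicate 1 of radiation after smoke extract, the lowest array (adjusted p = 0.126), and when the fit held only the compared groups (0.302). Without the 13 far arrays, which leaves 1 array of radiation after smoke extract, the fall of CCNF was larger, -0.63 (9.89e-05).

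CDK1, the kinase itself, had the widest span of all 10 genes, 2.65 between its highest and lowest group mean. It was also the member most reduced by smoke extract alone. Untreated cells at 24 h read 8.99, 8.78 and 8.57, and cells with smoke extract 7.87, 8.18 and 7.63. The groups did not overlap, and the fall of 0.89 ± 0.18 was 1.85-fold (limma adjusted p = 0.000408). Radiation alone gave 7.94, 7.83 and 8.35, a fall of 0.74 ± 0.18, 1.67-fold (limma adjusted p = 0.00168). Both together gave 6.28, 6.25 and 7.03, and every one of these arrays lay below every array of the other 17 groups. Against radiation alone this was a 2.86-fold fall (-1.52 ± 0.18, limma adjusted p = 8.18e-09). Smoke extract before cisplatin gave 7.92, 8.38 and 7.88, against 9.04, 8.63 and 9.14 with cisplatin alone (-0.87 ± 0.18, limma adjusted p = 0.000459). At 2 h the 9 group means of CDK1 lay within 0.35, and none of the comparisons at 2 h called it.

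WEE1 needs care, because 3 array rows carry its symbol and they gave different answers. The row chosen by the rule is annotated by a single cDNA and has the highest mean. Another row is annotated by RefSeq transcripts, and it was added here after the values had been seen. In the chosen row, untreated cells at 2 h read 8.54, 8.68 and 8.73 and irradiated cells 7.43, 7.55 and 7.77, a fall of 1.07 ± 0.16 or 2.10-fold (limma adjusted p = 5.79e-05). In the RefSeq row the same arrays read 8.21, 8.35 and 8.27 against 8.06, 8.03 and 7.90. Neither row's groups overlapped, but the RefSeq row's change was -0.28 ± 0.08 and did not pass (limma adjusted p = 0.115). It passed in the mean over the 3 pretreatments at 2 h, at -0.28 beside -0.77 for the chosen row (limma adjusted p = 5e-05 and 1.48e-07). The third row, a single cDNA with the lowest mean, fell by 1.15 after radiation at 2 h (limma adjusted p over all rows = 0.00791). Correlations between the 3 rows over 18 group means were 0.636, 0.689 and 0.675, as a description of means that share their arrays.

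At 24 h radiation alone left the chosen WEE1 row at 8.71, 8.70 and 8.40 against 8.87, 8.82 and 8.80 in untreated cells (-0.23, limma adjusted p = 0.38), and the change of the RefSeq row was -0.03. The single-cDNA row with the lowest mean was lower, by 0.93 (limma adjusted p over all rows = 0.00221). Radiation in smoke extract pretreated cells lowered WEE1 by 0.93 in the chosen row and by 0.66 in the RefSeq row (limma adjusted p = 2.63e-05 and 3.28e-09). The row with the lowest mean fell by 1.05 there (limma adjusted p over all rows = 0.000966), close to its fall after radiation alone. Smoke extract in irradiated cells took the RefSeq row from 8.23, 8.23 and 8.15 to 7.54, 7.78 and 7.68. That was a 1.45-fold fall with separate groups (limma adjusted p = 4.6e-07), called in all 10 alternatives and left-out arrays run for this row, while the chosen row's -0.45 did not pass (0.0892). For smoke extract in irradiated cells the row with the lowest mean changed by -0.565 and did not pass (limma adjusted p over all rows = 0.203). The RefSeq row was higher after cisplatin at 24 h, by 0.28 (limma adjusted p = 0.0283). Only 3 of the 10 alternatives for that value kept the call, and the chosen row's change was 0.14 (0.67).

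**Figure D3:**
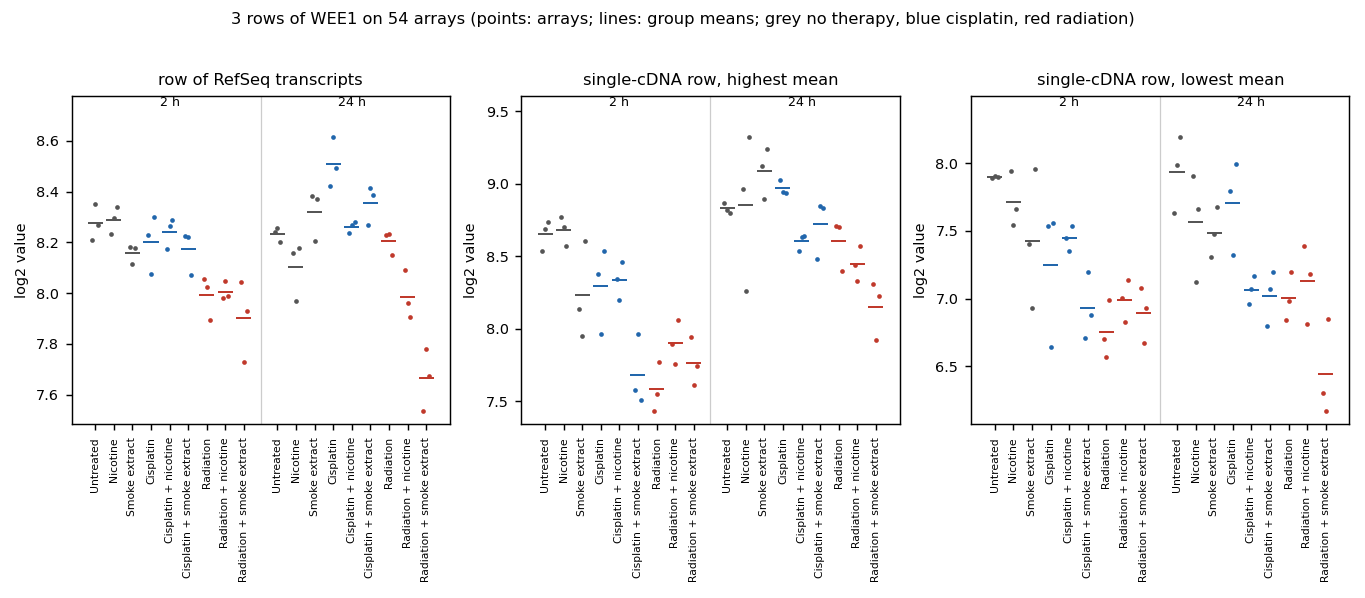
Log2 level of the 3 array rows annotated to WEE1 in the 18 groups, with points for single arrays and a bar for the mean of 3. The drop at 2 h after radiation is large in the 2 single-cDNA rows (-1.07 and -1.15) and small in the row of RefSeq transcripts (-0.28), whose lowest group is radiation after smoke extract at 24 h.

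PKMYT1 encodes the membrane-bound kinase that acts beside WEE1 on CDK1. Untreated cells at 24 h read 8.29, 8.36 and 8.47, irradiated cells 7.82, 7.72 and 7.71, and cells given smoke extract and radiation 7.27, 7.06 and 7.05. Each group lay wholly below the one before it. Radiation lowered PKMYT1 by 0.62 ± 0.09 (limma adjusted p = 8.45e-07), and smoke extract in irradiated cells lowered it by a further 0.62 ± 0.09 (limma adjusted p = 8.51e-07). At 2 h its change after radiation was 0.00 (95% interval -0.18 to 0.19), and the radiation effects at the 2 times differed by -0.62 ± 0.13 (limma adjusted p = 0.000524). PKMYT1 was the only member called after smoke extract alone at 2 h, 1 of 10 lower beside 2.04% of all genes. It read 8.23, 8.14 and 8.40 against 8.66, 8.67 and 8.52 in untreated cells (-0.36 ± 0.09, limma adjusted p = 0.00999). The call was lost without untreated replicate 1 or 2 (adjusted p = 0.0619 and 0.0732), without smoke extract replicate 1 or 2 (0.0506 and 0.132), and without the 13 far arrays (0.0817).

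The 2 phosphatase genes of the set did not move alike. CDC25C, which acts on CDK1 at mitotic entry, followed the cyclins: it read 7.49, 7.37 and 7.47 in untreated cells at 24 h, 6.96, 6.67 and 6.90 after radiation and 6.22, 6.25 and 6.28 after smoke extract and radiation. Both steps were of like size, -0.60 ± 0.11 and -0.59 ± 0.11 (limma adjusted p = 2.28e-05 and 4.52e-05). CDC25B, often described as the phosphatase that starts CDK1 activation, read 9.54, 9.44 and 9.16 after radiation at 24 h against 9.31, 9.34 and 9.45 in untreated cells. These groups overlapped, and the change was 0.01 with a 95% interval of -0.17 to 0.19. It was the only member called higher after smoke extract at 24 h, at 9.76, 9.63 and 9.77 (0.35 ± 0.09, limma adjusted p = 0.0046). With CDK1 and CCNB2, that made 1 of 10 genes higher and 2 lower after smoke extract alone at 24 h, beside 8.67% and 7.4% of all genes.

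The rise of CDC25B with smoke extract was also present at 2 h. Over the 3 therapies (none, radiation and cisplatin) its mean change at 2 h was 0.32 ± 0.05 (limma adjusted p = 9.16e-06), 1 of 10 genes higher beside 4.22% of all genes. WEE1 was lower in that mean, 1 of 10 beside 5.06%, by 0.28 in the chosen row (limma adjusted p = 0.0466). Its RefSeq row did not pass (-0.08, 0.367), and the chosen row lost the call without any 1 of 12 arrays, at 0.0613 to 0.152. In the single comparisons, cells with cisplatin read 9.19, 9.06 and 9.22 and those with smoke extract before cisplatin 9.63, 9.64 and 9.68. The groups were well apart, at 0.49 ± 0.09 (limma adjusted p = 0.000145), in a comparison with 3.58% of all genes called higher. There, 2 of 10 genes were higher and WEE1 was lower, beside 1.87% of all genes. CDC20, the other higher gene, changed by 0.27 (limma adjusted p = 0.0366) and lost the call without any 1 of 5 arrays, at 0.0666 to 0.157, and without the 13 far arrays (0.0856). WEE1 fell by 0.61 (limma adjusted p = 0.0134), a call lost without any 1 of 4 arrays, at 0.0787 to 0.127, and without the 13 far arrays (0.0531), while its RefSeq row changed by -0.03 (0.921). In irradiated cells, with 1.75% of all genes called higher, the change of CDC25B was 0.33 (limma adjusted p = 0.0298), lost without any 1 of 4 arrays, at adjusted p from 0.107 to 0.164. Without therapy it was 0.13 and not called (0.727). Radiation in smoke extract pretreated cells lowered CDC25B at 24 h by 0.36 ± 0.09 (limma adjusted p = 0.00329), a call lost without the 13 far arrays (0.121).

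CDC20, the activator of the anaphase-promoting complex, read 10.13, 10.06 and 10.12 in untreated cells at 24 h and 9.93, 9.74 and 9.66 after radiation. The groups did not overlap, and the fall of 0.33 ± 0.08 was the smallest of the 8 called (limma adjusted p = 0.00232). Smoke extract alone gave 10.02, 10.02 and 10.32, with a change of 0.02 (limma adjusted p = 0.938). Smoke extract and radiation gave 9.07, 9.22 and 8.96, below every array of the other groups. Against radiation alone this was a 1.62-fold fall (-0.69 ± 0.08, limma adjusted p = 8.18e-09).

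Smoke extract at 24 h lowered few of the genes in cells without therapy and 8 of 10 in irradiated cells, beside 7.4% and 5.68% of all genes. Several were also lower with smoke extract in cisplatin-treated cells, as given below. The difference between the effects in irradiated cells and in cells without therapy was tested as an interaction. It was below 0 for all 10 genes, with a median of -0.58 beside -0.03 over all genes, and it passed for 5 of 10, beside 1.84% of all genes called lower. CCNA2 at 24 h stood at 7.39 where the sum of the single changes would put it at 8.35, a difference of -0.96 ± 0.12 (limma adjusted p = 2.24e-07). CDC20 differed by -0.71 ± 0.12 and CCNB1 by -0.80 ± 0.17 (limma adjusted p = 9.08e-05 and 0.00323), although CCNB1 did not pass when the fit held only the compared groups (0.108).

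For PKMYT1 the interaction was -0.53 ± 0.13 (limma adjusted p = 0.0141), lost without the 13 far arrays (0.131), in a fit of the compared groups alone (0.106), and without untreated replicate 1, smoke extract replicate 3 or radiation replicate 1 (0.0511, 0.0663 and 0.0558). For CCNB2 it was -0.48 ± 0.14 (limma adjusted p = 0.0469), and leaving out any 1 of 9 arrays ended the call, at 0.0645 to 0.133, as did leaving out the 13 far arrays (0.0938). CDK1, with the deepest joint level, had a difference of -0.63 ± 0.25 that did not pass (0.177). It passed without replicate 3 of radiation after smoke extract (-0.89, 0.0409). CCNF had an interaction of -0.21 that was not called and became -0.47 without the 13 far arrays (0.0318). For CDC25B it was -0.37 and not called, and -0.48 without radiation replicate 3 (0.013). The WEE1 row of the rule gave -0.70 (0.0857) and its RefSeq row -0.63 ± 0.11 (limma adjusted p = 0.000189), passing in all 16 alternatives run for it. The single-cDNA row of WEE1 with the lowest mean gave -0.11 and was not called (limma adjusted p over all rows = 0.938). The rows of WEE1 thus differed on the interaction. Against untreated cells, the joint treatment left CDK1 4.79-fold and CCNA2 4.56-fold lower, CCNB1 2.85-fold, CCNB2 2.56-fold, CCNF 2.52-fold, PKMYT1 2.37-fold, CDC25C 2.29-fold and CDC20 2.03-fold lower. CDC25B stood at 1.01-fold. Means of the silent families spread from 4.76 to 5.15 over the 3 arrays of the joint group and from 4.88 to 4.94 in untreated cells.

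**Figure D4:**
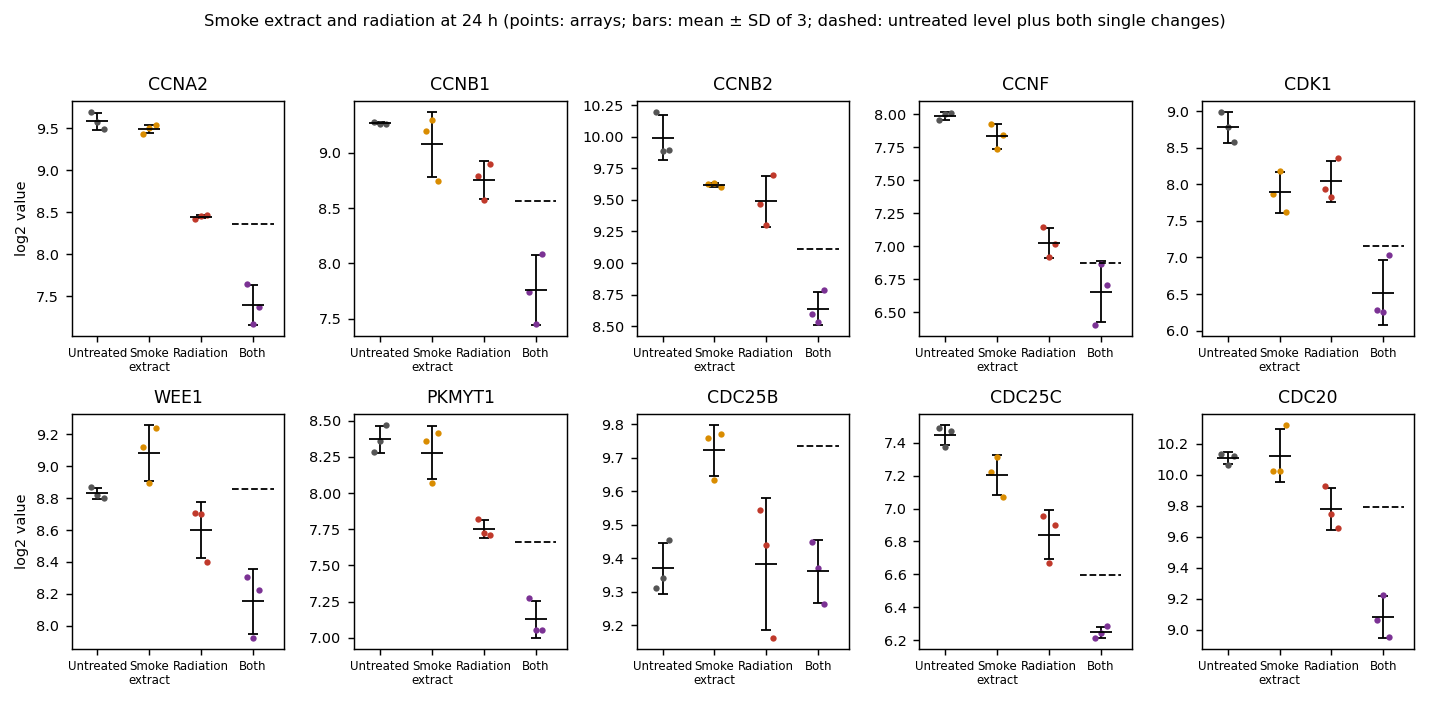
Log2 level of the 10 genes at 24 h in untreated cells and after smoke extract, radiation or both, with points for arrays and the mean ± SD of 3; the dashed line is the untreated level plus both single changes. The joint group lies below the dashed line in all 10 panels, by 0.96 for CCNA2 and by 0.21 for CCNF.

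Cisplatin at 1 uM gave no such pattern in the 10 genes. CDKN1A changed by -0.16 at 2 h and by 0.26 at 24 h after cisplatin, and was not called (limma adjusted p = 0.358 at 24 h). That check therefore does not show that the cells responded to cisplatin at this dose. Called changes of other G2/M genes after cisplatin alone at 24 h, CKS1B among them, are given below. Replicates 2 and 3 of cisplatin alone were among the 13 far arrays at both times. At 24 h, 0 of 10 genes were called by limma, beside 3.8% of all genes, and 0 had an unadjusted p under 0.05. Changes ran from -0.17 for PKMYT1 to 0.21 for CCNB1, with a median of 0.07. At 2 h, 0 of 10 were called by limma (3 at an unadjusted p under 0.05), beside 0.00543% of all genes. Set directly against cisplatin at 24 h, radiation left 8 of 10 genes lower, beside 7.91% of all genes, from CCNA2 at -1.27 to CDC20 at -0.40. CDC20 did not pass there without the 13 far arrays (adjusted p = 0.526) or in a fit of the compared groups alone (0.128), and PKMYT1 did not pass without the far arrays (0.0634). Radiation and cisplatin were each compared with the same untreated arrays, so those comparisons are not independent.

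Smoke extract before cisplatin at 24 h moved 7 of 10 genes, 6 lower and CDC25B higher, beside 28.6% of all genes called in either direction. CCNF read 7.50, 7.71 and 7.56 against 8.11, 7.99 and 8.10 with cisplatin alone (-0.47 ± 0.09, limma adjusted p = 0.000157). CDK1 has been given above. The calls of CCNA2, CCNB1, CCNB2, CDC25B and CDC25C were lost with the silent-family mean as a covariate (adjusted p = 0.311, 0.775, 0.0735, 0.104 and 0.157), and those of CCNA2 and CCNB1 also without the 13 far arrays (0.0691 and 0.122). Leaving out any 1 of 5 arrays ended the call of CCNA2, at 0.0743 to 0.223, and any 1 of 3 that of CCNB1, at 0.0509 to 0.24. The change of CDC20, 0.05 and not called, became 0.29 without them and passed (0.0422). The test of smoke extract by cisplatin called 0 of the 10 genes by limma, beside 0.152% of all genes.

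Nicotine alone was followed by no call among the 10 genes at 2 h or at 24 h, beside 0% and 0.00543% of all genes, and no unadjusted p was under 0.05 at either time. Averaged over the 3 therapies at 24 h, nicotine lowered CCNF by 0.24 and CDC20 by 0.18, 2 of 10 genes beside 4.43% of all genes (limma adjusted p = 0.00598 and 0.0186). CCNF did not pass when the fit held only the compared groups (0.0751). CDC20 did not pass there (0.131), after quantile normalization (0.0886), without the 13 far arrays (0.25) or without replicate 2 of radiation after nicotine (0.0508). CCNB2, at -0.16 and not called, passed without any 1 of 4 arrays, at 0.02 to 0.0433. The RefSeq row of WEE1 was lower by 0.20 (limma adjusted p = 0.00594), and the chosen row's -0.17 was not called. Before cisplatin nicotine lowered CCNF at 24 h from 8.11, 7.99 and 8.10 to 7.61, 7.64 and 7.62, 1 of 10 genes lower beside 9.56% of all genes. The groups were separate (-0.44 ± 0.09, limma adjusted p = 0.00448), but the call was lost with the silent-family mean as a covariate (0.0756) and without cisplatin replicate 3 (0.0539). Before radiation nicotine moved none of the 10 genes past the threshold at 24 h, beside 0.00543% of all genes.

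Neighbouring groups in the order of levels mostly could not be separated. Of the 17 gaps between neighbouring group means, those larger than the bigger SD of the pair numbered 5 for CCNF, 4 for CCNB2 and CDC20, 3 for CDK1 and PKMYT1, 2 for CCNA2, CCNB1 and CDC25C, and 1 for WEE1 and CDC25B. CDK1 shows the form this took. Its lowest group, radiation after smoke extract at 24 h, stood 1.37 under the next one. Smoke extract, radiation after nicotine, radiation, and cisplatin after smoke extract, all at 24 h, then lay between 7.89 and 8.06 without a gap above their SD.

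Other genes of the G2/M network were read in 5 lists with 48 genes, taken from knowledge of the pathway and chosen with earlier results of these data known. At 24 h after radiation 25 of 48 were lower and 4 higher, beside 11% and 10% of all genes, with a median of -0.34. The same shares of all genes apply to each list at this time. Among partners and activators of CDK1, 5 of 8 were lower, led by the CDK-binding subunits CKS2 (-1.90) and CKS1B (-1.39) and by CDK2 (-1.07). In the polo, Aurora and Greatwall branch 5 of 8 were lower, among them BORA (-0.81), MASTL (-0.58) and PLK1 (-0.53). Of the ubiquitin ligase and spindle checkpoint genes 6 of 12 were lower, including FBXO5 (-1.18), an inhibitor of the anaphase-promoting complex, MAD2L1 (-1.17), BUB1B (-0.80) and UBE2C (-0.79). The transcription factor list had 6 of 12 lower, with MYBL2 at -0.71 and FOXM1 at -0.48, and 1 higher. Among the CDK inhibitors and checkpoint kinases 3 were higher, GADD45A (1.41), CDKN1A (0.77) and CDKN1B (0.47), and 3 lower.

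Smoke extract in irradiated cells at 24 h lowered 17 of the 48 genes and raised 1, CDKN1B (0.50), beside 5.68% and 2.55% of all genes. In 1 of 12 alternatives and left-out arrays CDKN1B lost its call (adjusted p = 0.123). In the polo, Aurora and Greatwall list 5 of 8 were lower, including TPX2 (-1.18), PLK1 (-1.11) and AURKA (-1.01), beside BUB1B (-1.06), MYBL2 (-1.02) and FOXM1 (-0.95). The interaction passed for 9 of 48 genes, all below 0, beside 1.84% of all genes called lower. Among them were TPX2 (-1.10), FOXM1 (-1.10), PLK1 (-1.02), BUB1B (-0.96) and MYBL2 (-0.90). These 5 passed in all 18 alternatives and left-out arrays run for them. After smoke extract alone 10 of 48 were lower, with AURKA at -0.91, and 3 higher, beside 7.4% and 8.67% of all genes. Over the alternatives and left-out arrays the count of lower genes ran from 4 to 15. In cisplatin-treated cells smoke extract at 24 h lowered 25 of 48 and raised 1, beside 14.1% and 14.6% of all genes. AURKA changed by -0.95 there. That count of lower genes was unsteady, from 5 to 27 over the alternatives and left-out arrays. A broad fall of these genes with smoke extract was thus not particular to irradiated cells. At 2 h after radiation 4 of 48 were called, beside 0.304% of all genes, CDKN1A (1.26) and GADD45A (1.15) higher and BORA (-0.69) and PLK1 (-0.31) lower. PLK1 lost that call in 6 of 12 alternatives and BORA in 1. After cisplatin alone at 24 h 2 of 48 were lower and 3 higher, beside 1.65% and 2.15% of all genes. CKS1B changed by -0.88 (limma adjusted p = 0.000255) and lost the call in 0 of 12 alternatives and left-out arrays. CKS2 (-0.98) lost it in 7, GADD45A (0.40) and RBL2 (0.38) in 6 each, and ARPP19 (0.25) in 8.

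Across the 18 group means, CCNA2, CCNB1, CCNB2, CDK1, PKMYT1, CDC25C and CDC20 followed each other, from 0.806 for CDK1 with CDC20 to 0.976 for CCNB1 with CDC25C and for CCNB2 with CDK1. CCNF stood somewhat apart, at 0.687 with PKMYT1 to 0.855 with CDC25C. WEE1 and CDC25B followed none of those 8, with values from -0.325 to 0.299. The RefSeq row of WEE1 ran from 0.403 with CCNB2 to 0.727 with CCNF among the same 8 genes, and was 0.226 with CDC25B. These are Pearson correlations of group means that share their arrays and are given as a description.

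Among all other measured genes, the profile nearest to CCNB1 was that of KIF20A, a mitotic kinesin, at 0.995, followed by KIF14 and NCAPG. CCNA2 was most like LMNB1 (0.988), CCNB2 most like SKA1 and ZWINT (0.991 each), and CDK1 most like PBK (0.99). CDC25C was nearest to DNA2 and PKMYT1 to DTYMK (0.985 each). CDC20 was nearest to PLK1 (0.951) and CCNF to BORA (0.946), an activator of Aurora A. WEE1 was nearest to SCAI (0.917) by the chosen row and to METTL4 (0.919) by the RefSeq row, and CDC25B to AGFG2 (0.939).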

How the data were processed

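The deposited values filled 33297 rows for 54 one-colour whole-transcript arrays. Affymetrix Power Tools 1.15.0 was run by the authors, per the submitters' processing notes; how background and normalization were handled is not given in the sources used here. Deposited values ran from 0.89 to 13.81 and were read as log2 values, a base inferred from their range, on which every fold change rests. They were used as deposited, and 0 sample columns were left unused. Groups came from the sample titles. Of the rows, 19460 had 1 gene symbol, 1754 several and 12083 none. The row with the highest mean stood for a symbol.

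All arrays entered 1 linear model of 18 group means, fitted with limma 3.58.1 in R 4.3.3 (files were read with version 1.17.8 of the data.table package), with an intensity trend in eBayes and 36 residual degrees of freedom. P-values are two-sided and Benjamini-Hochberg adjusted over 18417 genes, with calls under 0.05. The procedure was tested on simulated data with independent noise and no array-wide shifts. That test does not cover shifts such as those of the far arrays. Errors are SD over 3 arrays or SE of the fit, and the number of arrays limits the precision. P-values measure the spread between these cultures.

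The 10 genes and the 5 lists of other genes were chosen with earlier results of these data known. By rule, the 10 genes are named throughout, up to 4 called genes of a list with the largest change in a comparison, CDKN1A and CYP1A1 as checks, and the 3 most similar profiles to each gene by correlation. Alternatives were eBayes without trend, fits on the compared groups only, quantile normalization, a replicate block, all rows, a filter at the median level, the mean of all rows per gene, the silent-family mean as a covariate, arrays left out singly or as the 13 far ones, and a threshold of 0.01. The WEE1 row of RefSeq transcripts was chosen after seeing the data. Replicate numbers were checked for pairing: in 2 of 11 pairs of groups every same-number correlation of deviations exceeded 0.1, with a range of -0.437 to 0.674, and the numbers were not taken to pair the samples. Among these 2 was radiation with radiation after smoke extract at 24 h, at 0.325, 0.373 and 0.674. There, replicate 1 correlated better with another number (0.405). The replicate block spans all 18 groups, and no fit paired within that comparison was run.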

Additional observations from a re-analysis of the deposited data

Results flagged for a closer look

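Effects of smoke extract at 24 h differed between irradiated cells and cells without therapy for 5 of the 10 genes, by limma's test of the interaction. The differences on the log2 scale were -0.96 ± 0.12 (SE) for CCNA2, -0.80 ± 0.17 for CCNB1, -0.71 ± 0.12 for CDC20, -0.53 ± 0.13 for PKMYT1 and -0.48 ± 0.14 for CCNB2, with adjusted p of 2.24e-07, 0.00323, 9.08e-05, 0.0141 and 0.0469. In these 5 genes the arrays given both treatments lay below the arrays given radiation alone. Only 2 of the 10 genes passed when the fit held the compared groups alone. As given above, CCNB1, PKMYT1 and CCNB2 each lost the call in some alternatives or with single arrays left out.

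Radiation effects differed between 24 h and 2 h for 4 of the genes, by the same kind of test. CCNA2 differed by -1.0 ± 0.12, PKMYT1 by -0.62 ± 0.13 and CCNB2 by -0.53 ± 0.14 (limma adjusted p = 3.16e-08, 0.000524 and 0.00559), being lowered at 24 h and not called at 2 h. WEE1 ran the other way, at 0.84 ± 0.23 (limma adjusted p = 0.00995), lower at 2 h and not called at 24 h. For WEE1 the difference did not pass with the row of RefSeq transcripts (0.26, 0.118) or with the mean of its rows (0.44, 0.112).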

How the results depend on the processing

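Each of 440 gene results was recomputed under every setting. The direction of 1 called value turned: WEE1 under cisplatin, averaged over 3 pretreatments at 24 h, was -0.16 in the chosen row (not called, adjusted p = 0.381) and 0.158 in the row of RefSeq transcripts (0.0255). Counts of the 10 genes called kept within 1.5 times in the 12 comparisons tested for counts, with these exceptions. After smoke extract at 2 h the count of 1 became 2 when the fit held only the compared groups and 0 without the far arrays, and ranged from 0 to 2 with single arrays left out. For the interaction of smoke extract and radiation at 24 h the count of 5 became 2 with only the compared groups and 3 at a threshold of 0.01, and ranged from 3 to 6 with single arrays left out. With WEE1 by its RefSeq row, radiation at 2 h had 1 call in place of 2, and cisplatin at 24 h had 1 in place of 0. The cause was not tested. Leaving out the far arrays leaves 3 groups with 1 array each, which are then assumed to vary like the others.

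With the replicate number as a block, the counts in those 12 comparisons stayed at 2 for radiation at 2 h, 8 for radiation at 24 h, 10 for radiation in smoke extract pretreated cells and 5 for the interaction, and no call among them changed. In other comparisons the block added 3 calls, CCNB2 for nicotine in cisplatin-treated cells (0.0439), CDC25C for the radiation effect between times (0.0482) and WEE1 for the smoke extract effect between times (0.0496). Same-number samples correlated best with their own number in 14 of 33 cases. Counts over all 18417 genes were less steady: 56 for radiation at 2 h ranged from 27 to 222 over the alternatives, 3875 at 24 h from 2672 to 5549, 700 for cisplatin at 24 h from 76 to 1243, 1516 for smoke extract in irradiated cells from 651 to 2017, 474 for the interaction from 152 to 1498, 5275 for smoke extract in cisplatin-treated cells from 1309 to 7330, 3280 for nicotine in cisplatin-treated cells from 23 to 6068, 2611 for radiation in smoke extract pretreated cells from 1226 to 3407, 2959 for smoke extract at 24 h from 1640 to 4196, 695 for smoke extract at 2 h from 443 to 1278, and 2403 for radiation against cisplatin at 24 h from 816 to 3525. These ranges span unlike settings. The 4196 counts calls among all 33297 rows, and the 2672, 1640 and 443 are counts at the threshold of 0.01. The share of calls that were higher moved by over 10 points with the silent-family covariate for radiation at 2 h (44.6% to 28.5%) and cisplatin at 24 h (56.6% to 43.2%), and with quantile normalization for radiation in smoke extract pretreated cells (29.8% to 44.9%) and radiation against cisplatin at 24 h (39.4% to 51%, and 52.5% with the covariate). With no detection calls, the signal over background of a low value is unknown.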
